A study of Zea mays with 24 samples.

Results

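In the maize leaf group called q2, most measured genes for cellulose synthases, tubulins and lignin were at least 2-fold lower in lit mid-leaf than in the transition segment below it, while no measured C4 core gene was. Of all measured genes, 18.7% were at least 2-fold lower in mid-leaf of q2. In the second group, q1, 7 of 8 lignin genes, 3 of 8 cellulose synthases and 1 of 9 tubulin and actin genes were lower. No measured C4 core gene was lower in q1 either. The chlorophyll-binding genes cab-m1 and lhcb3 were also lower in mid-leaf of q2, and their change differed from that in q1. The data come from leaf 2 of 9-day seedlings of the inbred W22, grown at 28 °C and 40% humidity under a 16 h photoperiod with 500 umol m-2 s-1 of supplemental light. Segments are numbered from the ligule, the hinge of blade and sheath. Segment +4 is mature, fully lit mid-leaf blade, and segment -1 is tissue just below the point where the blade emerges, where it turns from importing sugar to exporting it. The groups concerned are dct2-1 at +4, dct2-1 at -1, wild type at +4 and wild type at -1, with 3 libraries each from 15 pooled plants. These 4 groups share the W22 background and the growth conditions. The dct2-1 allele affects pDCT2, a plastid dicarboxylate transporter, and nothing in the labels says how many independent alleles the line stands for.

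The comparison sets q2 at +4 against q2 at -1, as FPKM, a read level per transcript length and sequencing amount, in the authors' deposited tables. Member genes had at least 5 FPKM in 1 of these segments and no failed or overloaded test, which gave 13650 of 39634 genes from 6 of 24 libraries. The tables call their groups only q1 and q2. The group q2 is taken here as dct2-1 because pDCT2 is low in it in every table, which is an assumption made from values and not from a label, and the groups are called q2 and q1 throughout. Each group has 1 pooled value per segment, so the change between segments has no replicate error and no test. Only the contrast of q2 with q1 carries an error, and that error allows a test of whether the change from -1 to +4 differed between q2 and q1. The tables were scaled separately by the authors. Levels are given as deposited, while log2 changes use log2((a + 1)/(b + 1)) after each column was scaled to a common median over the member genes.

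A grass blade grows from its base, so segments along it form a series of ages. Cells near the base expand, build walls and assemble chloroplasts, and cells farther out fix and export carbon. In C4 maize, mesophyll cells capture CO2 into C4 acids, and bundle sheath cells release it around Rubisco. pDCT2 carries malate into bundle sheath chloroplasts, where NADP-malic enzyme (me3) releases the CO2.

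pDCT2 (GRMZM2G086258; deposited position chromosome 1, 181868559 to 181880941, of a build that the tables do not name) had 7.84, 12.5, 8.91 and 9.495 FPKM in q2 at -4, -1, +4 and +10. In q1 it had 37.8, 657, 633 and 310.4 FPKM over the same segments. The q2 levels of pDCT2 lay below the q1 levels in all 4 tables. This is the basis on which q2 was taken as dct2-1, so it is not a separate result. The change of pDCT2 from -1 to +4 was -0.08 in q2 on the log2 scale, against 0.34 in q1.

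Mesophyll and bundle sheath markers were plentiful in both segments of q2. The 6 mesophyll markers with a usable level summed to 8691 FPKM at +4 and 5307 FPKM at -1, and the 8 bundle sheath markers to 11532 FPKM at +4 and 12201 FPKM at -1. Of 30 meristem, sheath and ligule genes, 17 were listed at 0 at +4 and 14 at -1, with sums of 60.2 FPKM at +4 and 102 FPKM at -1. Of 21 endosperm, pollen and root genes, 16 were at 0 at +4 and 15 at -1, with sums of 30.8 and 31.9 FPKM in the same order. The level of that last list came mostly from FL1 (30.2 FPKM at +4 and 25.9 FPKM at -1). The summed level of the meristem list was thus lower at +4, and its part in the results below was not tested. In bulk tissue, fewer cells of a type and less RNA per cell cannot be told apart.

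Across the member genes of q2, 1802 (13.2%) were at least 2-fold higher at +4 and 2552 (18.7%) at least 2-fold lower. The other 9296 lay within 2-fold. At 4-fold, 549 genes (4.02%) were higher and 1118 (8.19%) lower. The median log2 change was 0.06 with quartiles at -0.64 and 0.58, and single genes reached -7.53 and 7.23. Without scaling, the median over the same genes was -0.31, with 1122 genes at least 2-fold higher and 3416 lower. Higher genes then made up 24.7% of those past 2-fold, against 41.4% with scaling. With scaling but no FPKM minimum the balance turned, with 3620 genes at least 2-fold higher and 2705 lower, or 57.2% higher. At a level of 5 FPKM, 10038 genes passed in both segments, 762 at +4 alone and 2850 at -1 alone. At the edge of the rule, pht3 was just inside with 5.01 FPKM at +4 and 0.0897 FPKM at -1, and pBrp with 4.56 FPKM at +4 and 5.03 FPKM at -1. Just outside stood der2, with 0.876 FPKM at +4 and 4.99 FPKM at -1, and dcl3a/rmr5, with 3.76 FPKM at +4 and 4.93 FPKM at -1.

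**Figure D1:**
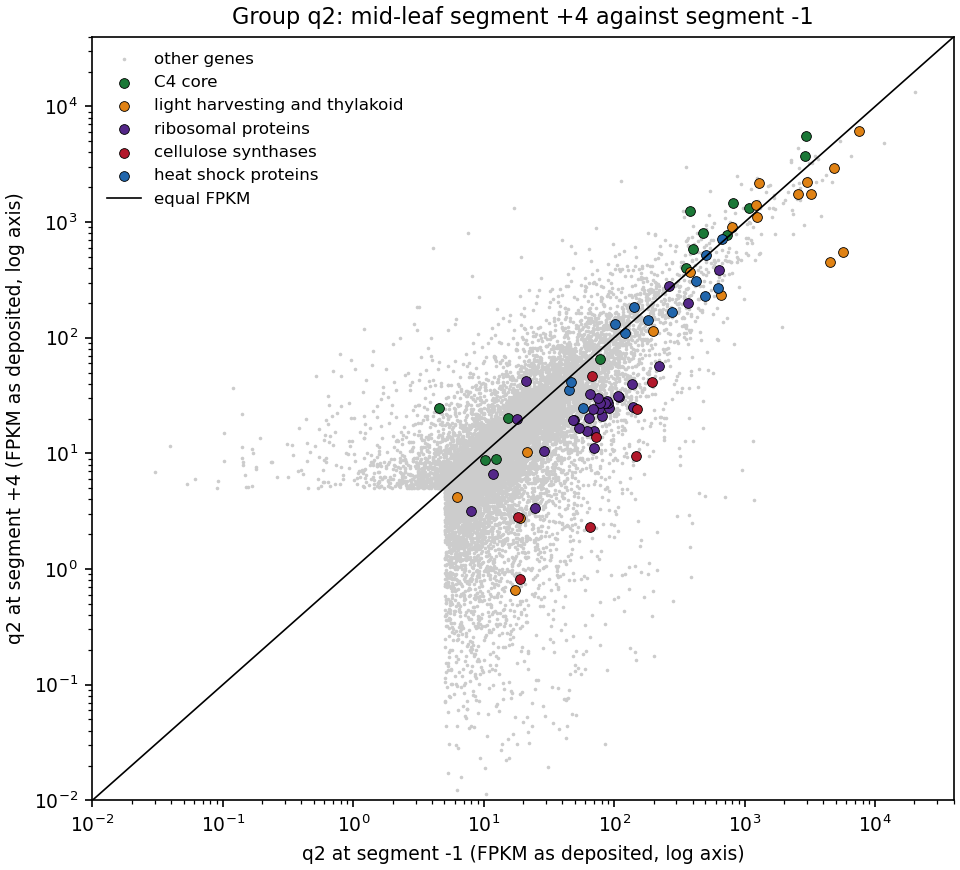
Level of each member gene in q2 at segment +4 (vertical axis, deposited FPKM, log scale) against segment -1 (horizontal axis, deposited FPKM, log scale), with 5 gene lists in colour and a line of equal FPKM. Genes listed at 0 or below the axes are not drawn, and the 8 cellulose synthases and most ribosomal protein genes lie under the line while most C4 core genes lie on or above it.

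The 12 named genes highest at +4 relative to -1 included genes of nitrogen assimilation, sucrose synthesis and vacuolar sugar transport, and MYB-type regulators. bss1 (GRMZM2G168552; chromosome 8, 157100231 to 157101209), named after its bundle sheath strand specific expression, had 593 FPKM at +4 and 4.09 FPKM at -1 in q2, a log2 change of 7.23, against 8.45 in q1. GLN6, a glutamine synthetase, had 117 FPKM at +4 and 3.08 FPKM at -1 in q2. NNR1, a nitrate reductase, had 140.3 FPKM at +4 and 15.7 FPKM at -1 in q2. Both enzymes stand in the path that turns nitrate into amino acids, and both stand among these 12 genes.

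The sugar genes among the 12 were sps1 and TMT. sps1, a sucrose phosphate synthase, had 256 FPKM at +4 and 32.4 FPKM at -1 in q2. TMT, a transporter that loads monosaccharides into the vacuole, had 52.3 FPKM at +4 and 3.58 FPKM at -1. PPCK1, the kinase that phosphorylates phosphoenolpyruvate carboxylase, had 57.4 FPKM at +4 and 5.35 FPKM at -1. The remaining genes of the 12 were the MYB-type genes RADIALIS (46.7 FPKM at +4 and 0.808 FPKM at -1) and MYBR115 (31.1 FPKM at +4 and 0.636 FPKM at -1), vignain, a cysteine protease (log2 change 3.83), opr6, of the oxophytodienoate reductase family (3.66), LOL3 (3.38) and sat1, a serine acetyltransferase (3.18). Among the 12, only NNR1 and LOL3 had a change that differed from that in q1 by the test described below. The rises of the 12 are therefore not given as particular to q2.

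The 12 named genes lowest at +4 relative to -1, leaving out genes listed at 0 in a segment, included wall and surface genes. Laccase-13, of the family that polymerises lignin, had 0.177 FPKM at +4 and 201 FPKM at -1 in q2, a log2 change of -7.19. Laccase-17 of the same family had 0.147 FPKM at +4 and 49.8 FPKM at -1. BURP4, a BURP-domain gene, had 4.56 FPKM at +4 and 446 FPKM at -1. All 3 were well above the FPKM minimum at -1 and below it at +4.

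gl4a, of the glossy group of cuticular wax genes, had 12.7 FPKM at +4 and 403 FPKM at -1 in q2. rs2, the MYB regulator rough sheath2, had 0.264 FPKM at +4 and 48.3 FPKM at -1. lox1, a lipoxygenase, had 1.29 FPKM at +4 and 74.4 FPKM at -1. The others were ZCN6, of the family of the flowering regulator FT (log2 change -6.64), pcr1 (-6.49), gar2 (-6.00), LPE1, a leaf permease (-4.82), CGTb (-4.42) and GPDH1 (-4.40). Of these 12, 11 were also at least 4-fold lower at +4 in q1. The exception was gl4a, at -1.65 in q1.

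The set of genes past 2-fold in q2 overlapped with that in q1. In q1, 1663 of the same 13650 genes (12.2%) were at least 2-fold higher at +4 and 1796 (13.2%) at least 2-fold lower, with 460 (3.37%) and 526 (3.85%) past 4-fold in these directions. Of the higher genes, 1175 were shared, which is 65.2% of those in q2 and 70.7% of those in q1. Of the lower genes, 1381 were shared, or 54.1% of those in q2 and 76.9% of those in q1. Changes in q2 and q1 had Pearson's r of 0.82 and Spearman's rho of 0.77 across 13650 genes, which share scaling and are not independent replicates. The SD of the log2 change across genes was 1.33 in q2 and 1.10 in q1. Members were chosen by their level in q2 alone, and 12655 of the 13650 also had at least 5 FPKM in q1. That choice can favour larger changes in q2, so these counts, shares and SDs do not compare q2 and q1 on equal terms. Genes past 2-fold in opposite directions were few, with 7 higher in q2 and lower in q1, and 26 lower in q2 and higher in q1.

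The change from -1 to +4 differed between q2 and q1 in 553 of 13220 member genes that could be tested (4.18%), by a normal test, two-sided, of 1 log2 fold change minus the other with Benjamini-Hochberg adjustment. The change was more positive in q2 for 95 (0.719%) and more negative for 458 (3.46%). Members were chosen by their q2 level alone, with 2850 passing 5 FPKM at -1 alone and 762 at +4 alone. That choice can favour lower changes in q2, so the split of 458 and 95 does not compare directions on equal terms. The smallest difference called was 1.42 on the log2 scale, and the median standard error of a difference was 0.54. With standard errors taken from the deposited p-values, an alternative chosen after seeing the data, 667 differences were higher and 1443 lower, and 509 of the 553 were among them. The named calls lost with those errors were expB4, expB6, dxs2, BX4, Igl, hsp18 and hsp82. Of the 458, 256 were at least 2-fold lower at +4 in q2 and within 2-fold in q1, 112 were lower in both groups, 47 were within 2-fold in q2 and higher in q1, and 23 were lower in q2 and higher in q1. Of the 95, 35 were within 2-fold in q2 and lower in q1, 29 were higher in q2 and within 2-fold in q1, 12 were higher in both, and 4 were higher in q2 and lower in q1. The other called genes lay within 2-fold in both groups (11 and 12) or passed 2-fold in the direction opposite to the difference in both groups (9 and 3). Differences are written below as q2 minus q1, on the log2 scale and with their standard error.

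**Figure D2:**
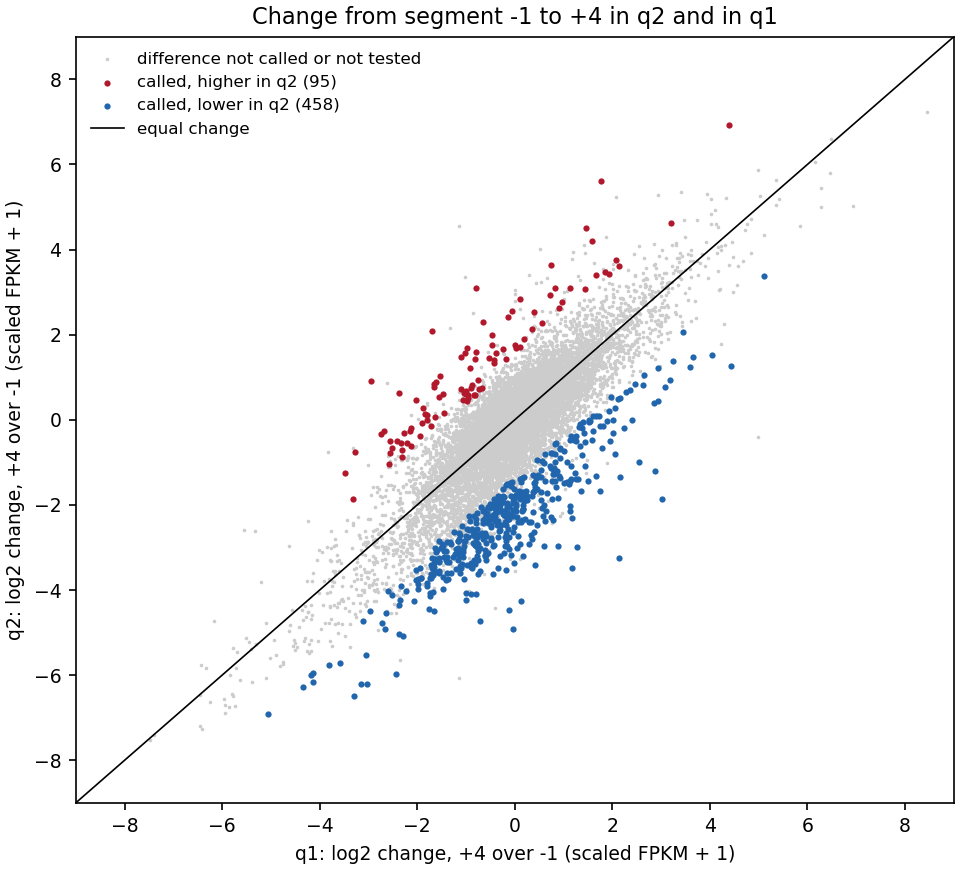
Log2 change from segment -1 to +4 in q2 (vertical axis) against q1 (horizontal axis) for 13650 member genes, on scaled FPKM with 1 added. The 458 genes with a called lower change in q2 lie below the line of equal change and outnumber the 95 with a called higher change above it. The genes were chosen by their q2 level alone, which can favour lower changes in q2.

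Transcripts of the C4 cycle lay within 2-fold or were higher in mid-leaf of q2. Of 14 measured C4 core genes, 5 were at least 2-fold higher at +4, none lower, and the median change was 0.76 in q2 and 1.17 in q1, against 0.06 and 0.03 over all member genes. Without scaling, the C4 core median in q2 was 0.38. No C4 core gene had a called difference between q2 and q1 in the normal test, and 1 passed an unadjusted p of 0.05. Over all tested member genes the called share was 4.18%, so no call among 14 genes says little about this list. In 11 of the 14 the change was lower in q2 than in q1. The other 2 core genes, pep1 and pdk1, had too much data for the authors' test at +4 and were left out. me3 was within 2-fold, with 3729 FPKM at +4 and 2874 FPKM at -1 in q2. Of the 5 higher genes, GRMZM2G001696 had 1255 FPKM at +4 and 378 FPKM at -1 in q2, and GRMZM2G121878 had 5535 FPKM at +4 and 2965 FPKM at -1. The other 3 were GRMZM2G066413 (log2 change 2.57 in q2 and 2.74 in q1), GRMZM2G070605 (1.26 in q2 and 2.24 in q1) and GRMZM2G348512 (1.15 in q2 and 1.57 in q1). The count of 5 rests on scaled levels. In deposited levels, GRMZM2G121878 and GRMZM2G348512 at least were less than 2-fold higher in q2.

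Among malate-related genes, mdh6, NADP-malate dehydrogenase of mesophyll chloroplasts, had 1315 FPKM at +4 and 1072 FPKM at -1 in q2. pOMT1, a plastid malate carrier, had 400.4 FPKM at +4 and 353 FPKM at -1, and pDCT1, related to pDCT2, had 65.9 FPKM at +4 and 78.4 FPKM at -1. The changes of pDCT1 were 0.15 in q2 and 0.88 in q1, with an uncalled difference of -0.74 ± 0.45. pdrp1, the regulatory protein of pyruvate orthophosphate dikinase, changed by 0.96 in q2 and 1.46 in q1. All 6 mesophyll markers had a smaller change in q2 than in q1, with medians of 0.83 and 1.52, and in the same test none of these differences was called and 1 passed the unadjusted p. For the 8 bundle sheath markers the medians were 0.36 in q2 and 0.47 in q1, and without scaling the q2 median was -0.02.

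Several antenna transcripts changed differently in q2 and q1. Light-harvesting complexes bind chlorophyll and pass energy to the photosystems. Of 18 light-harvesting and thylakoid genes, 1 was at least 2-fold higher and 5 lower at +4 in q2, with a median of -0.23 in q2 and 0.73 in q1. The change was lower in q2 than in q1 in 15 of the 18. In 5 of the 18 the difference was called, each lower in q2, and 8 passed an unadjusted p of 0.05. cab-m1 (chromosome 8, 141641841 to 141643727), a chlorophyll a/b-binding gene, had 623, 5684, 553 and 46.6 FPKM in q2 at -4, -1, +4 and +10, and 271, 6699, 7679 and 2565 FPKM in q1. The q2 level was close to the q1 level at -1 and far below it at +4, with a difference of -3.56 ± 0.51.

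lhcb3 (chromosome 8, 70796778 to 70798941), a light-harvesting gene of photosystem II, had 930.2, 4509, 452 and 220.0 FPKM in q2 over the 4 segments, and 723, 6817, 6364 and 1651 FPKM in q1. Its difference was -3.22 ± 0.52. cab48, at a much lower level, had 0.660 FPKM at +4 and 17.4 FPKM at -1 in q2, against 13.2 and 21.8 FPKM in q1, with a difference of -3.99 ± 0.79. The remaining 2 called genes, named after their values were seen, were psad1 (-2.25 ± 0.45) and lhcb6 (-1.61 ± 0.49). The abundant genes lhcb7, psan1 and cp29 had no called difference. lhcb7 had 6136 FPKM at +4 and 7577 FPKM at -1 in q2, against 11810 and 8786 FPKM in q1. After scaling its log2 change was 0.10 in q2 and 0.82 in q1. psan1 had 2952 FPKM at +4 and 4804 FPKM at -1 in q2, against 6669 and 5098 FPKM in q1. cp29 had 3234 FPKM at +4 and 3095 FPKM at -1 in q2, against 8330 and 4047 FPKM in q1. All 3 were lower in q2 than in q1 at +4. The tables do not say how reads shared within a gene family were divided.

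Transcripts of 1000 FPKM or more had a lower median change in q2. Taking the mean of -1 and +4 within each group, 77 genes of that level had a median change of 0.19 in q2, with 13 at least 2-fold higher and 6 lower. In q1, 95 genes of that level had a median change of 1.06, with 50 at least 2-fold higher and 2 lower. Between 300 and 1000 FPKM the medians were 0.43 in q2 (200 genes) and 0.42 in q1 (234 genes). The 100 most abundant genes held 31.5% of summed FPKM at +4 and 31.9% at -1 in q2, against 44.9% at +4 and 33.9% at -1 in q1. The gene sets of a level class differ between q2 and q1, and the difference between the medians was not tested.

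**Figure D3:**
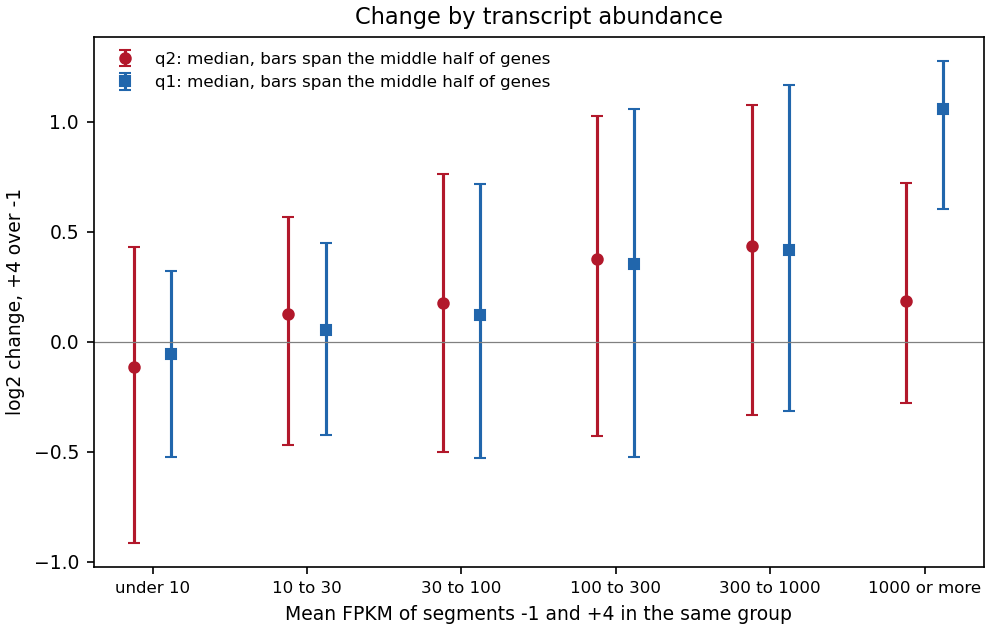
Median log2 change from segment -1 to +4 (vertical axis) by mean FPKM of both segments in the same group (horizontal axis), in q2 (circles) and q1 (squares), with bars for the interquartile range over genes. In the class of 1000 FPKM or more the median is 0.19 in q2 and 1.06 in q1, and in the other classes the medians lie close together.

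Carbon fixation and chlorophyll genes gave mixed values. The 7 Rubisco and Calvin-Benson genes had a median change of 0.39 in q2, which was -0.01 without scaling. The Rubisco small subunit genes ssu1 and rbcS had 2301 and 2152 FPKM at +4, against 3914 and 3032 FPKM at -1, in q2. After scaling their log2 changes were -0.37 and -0.09, both within 2-fold. Of 3 chlorophyll synthesis genes, por, protochlorophyllide reductase, had 181 FPKM at +4 and 612 FPKM at -1 in q2, and oy1, a magnesium chelatase subunit, 63.4 and 204 FPKM in that order. The third, elm1, of phytochromobilin synthesis, had 19.8 FPKM at +4 and 12.3 FPKM at -1.

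Photorespiration recycles the product of Rubisco's oxygenation. go1, a glycolate oxidase, had 324 FPKM at +4 and 161 FPKM at -1 in q2, and cat2, a catalase, had 391 FPKM at +4 and 154 FPKM at -1. cat1 changed by -0.24. None of the 3 had a called difference in the normal test, nor an unadjusted p under 0.05. Of 10 catalase, peroxidase and dismutase genes 2 were at least 2-fold higher in q2 and none lower, with PER42 (39.1 FPKM at +4 and 10.3 FPKM at -1) beside cat2. Of 7 measured genes placed on the plastid genome, 2 were at least 2-fold higher and none lower in q2, and the single mitochondrial member changed by 1.03.

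The sucrose genes sps1 and sut1 were higher in mid-leaf of q2, and sus1 was lower, while the list as a whole was mixed. Of 11 sucrose transport and cleavage genes 3 were at least 2-fold higher at +4 in q2 (TMT, sps1 and sut1), 3 were lower and 5 lay within 2-fold. The 3 called differences were all lower in q2. sut1, the phloem-loading sucrose transporter, had 278 FPKM at +4 and 59.6 FPKM at -1 in q2, against 295 FPKM at +4 and 69.3 FPKM at -1 in q1. sus1, a sucrose synthase, had 3.07 FPKM at +4 and 31.1 FPKM at -1 in q2, against 23.1 and 23.0 FPKM in q1. Its level at +4 was below that at -1 in q2 and alike in q1, a difference of -3.35 ± 0.58. The other called genes, named after their values were seen, were the invertase genes ivr2 (-1.81 ± 0.46) and incw1 (-2.07 ± 0.65).

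Starch genes had a lower change in q2 than in q1 in 6 of 8 cases. The median was 0.51 in q2, with 2 at least 2-fold higher and none lower, and 0.98 in q1. GBSSIIa, a granule-bound starch synthase, had 135 FPKM at +4 and 75.8 FPKM at -1 in q2, against 372 FPKM at +4 and 62.7 FPKM at -1 in q1 (difference -1.73 ± 0.45). ss1, a soluble starch synthase, had 117 FPKM at +4 and 172 FPKM at -1 in q2, against 384 FPKM at +4 and 149 FPKM at -1 in q1 (-1.92 ± 0.57). AGP2, of ADP-glucose synthesis, had 58.2 FPKM at +4 and 24.1 FPKM at -1 in q2, with no called difference.

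Of 11 nitrogen genes, 5 were at least 2-fold higher at +4 in q2, none was lower and 6 lay within 2-fold. The list median was 0.07 in q2, near that of all member genes, and 0.89 in q1, and without scaling the q2 median was -0.31. NIR, nitrite reductase, had 181 FPKM at +4 and 41.9 FPKM at -1 in q2, against 166 and 72.5 FPKM in q1. asn3, an asparagine synthetase, had 73.7, 370.3, 628 and 1058 FPKM in q2 at -4, -1, +4 and +10, and 2.51, 6.28, 9.61 and 10.1 FPKM in q1. Its level was higher in q2 in every segment, and its change from -1 to +4 was 1.16 in q2 and 0.89 in q1, an uncalled difference of 0.15 ± 0.50. NNR1 was the list's only called difference, at 1.67 ± 0.45.

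**Figure D4:**
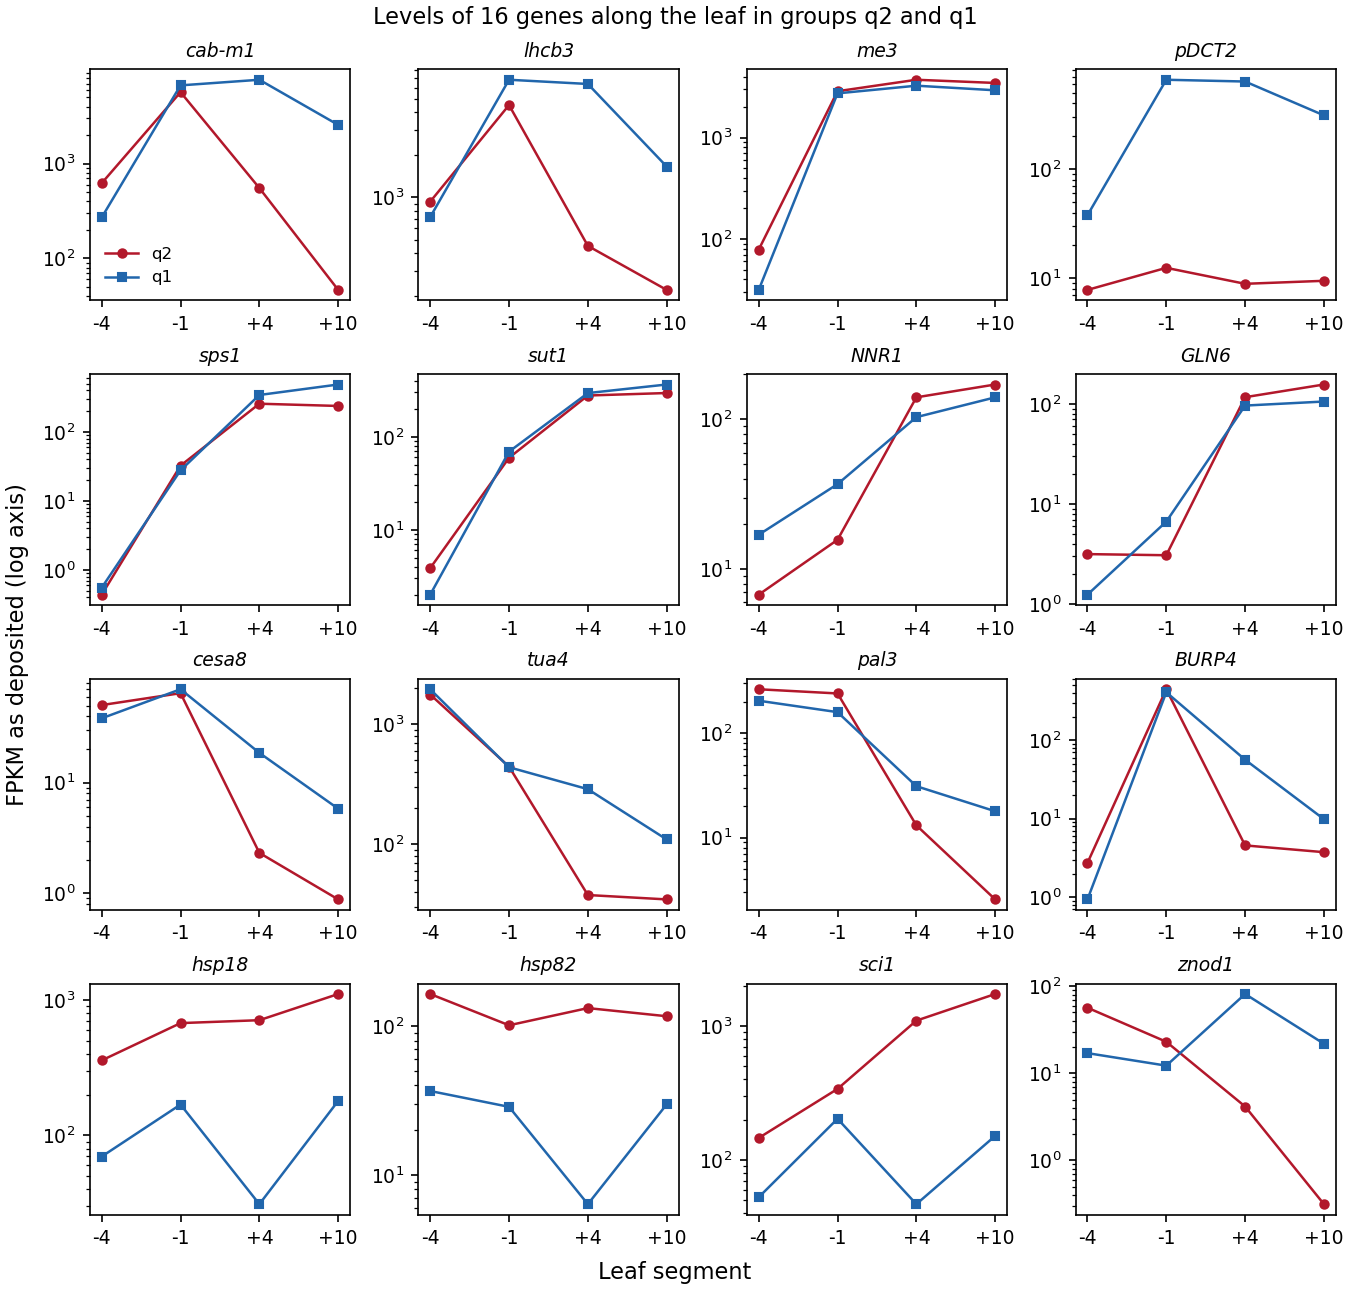
Deposited FPKM (vertical axes, log scale, each panel with its own range) of 16 genes at segments -4, -1, +4 and +10 (horizontal axes) in q2 (circles) and q1 (squares). cab-m1, cesa8 and tua4 are close in q2 and q1 at -1 and lower in q2 at +4, sut1 runs close together from -1 to +4, and hsp18, hsp82 and sci1 lie higher in q2 at all 4 segments.

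Most ribosomal protein genes were lower at +4 in q2 and in q1. Of 31 ribosomal protein genes, 20 were at least 2-fold lower and 1 higher in q2, with a median of -1.21, and 24 were lower and none higher in q1, with a median of -1.38. No difference between q2 and q1 was called in the normal test, and none passed an unadjusted p of 0.05. rps4 (GRMZM2G035017) had 11.2 FPKM at +4 and 70.1 FPKM at -1 in q2, and rps27 had 25.3 FPKM at +4 and 138 FPKM at -1. The 1 higher record, named after its value was seen, also carries the name of stc1, a sesquiterpene cyclase gene, so it is uncertain as a ribosomal value.

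Cytoskeleton and wall genes had negative medians in both groups, with the lower ones in q2. Tubulins form the microtubules that guide cellulose synthases during wall growth. Of 9 tubulin and actin genes, 6 were at least 2-fold lower and 1 higher in q2, with a median of -1.92 in q2 and -0.43 in q1, and 3 differences were called, all lower in q2. tua4, an alpha-tubulin, had 37.7 FPKM at +4 and 442 FPKM at -1 in q2, against 287 FPKM at +4 and 437 FPKM at -1 in q1 (difference -2.95 ± 0.54). tub5 (-2.72 ± 0.54) and tub6 (-2.43 ± 0.67), both beta-tubulins, were the other two. Actin-7, outside that list, had 0.490 FPKM at +4 and 14.6 FPKM at -1 in q2 (difference -3.85 ± 0.87).

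Of 8 cellulose synthase genes, 7 were at least 2-fold lower at +4 in q2 and none higher, and 3 were lower in q1. Their median was -2.10 in q2 and -0.75 in q1, and 6 differences were called, all lower in q2. cesa8 had 2.32 FPKM at +4 and 64.6 FPKM at -1 in q2, against 18.6 FPKM at +4 and 70.1 FPKM at -1 in q1 (-2.89 ± 0.49). cesa2 had 9.48 FPKM at +4 and 148 FPKM at -1 in q2, against 78.4 and 224 FPKM in q1 (-2.45 ± 0.45). The other 4 called genes were cesa3, cesa6, cesa7 and cesa5, between -2.14 and -1.60. For cesa8 and cesa2 the gap between q2 and q1 was wider at +4 than at -1. cesa10 departed from the rest, with a change of -0.13 in q2 and -0.91 in q1 (difference 0.80 ± 0.60, not called).

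Expansins loosen walls during growth. Of 5 expansin genes, 3 were at least 2-fold lower at +4 in q2, with a median of -2.96 in q2 and -0.54 in q1. expB4 had 1.36 FPKM at +4 and 25.9 FPKM at -1 in q2, against 70.1 FPKM at +4 and 158 FPKM at -1 in q1 (difference -3.08 ± 0.67). expB6 had 0.0793 FPKM at +4 and 8.59 FPKM at -1 in q2, against 7.46 and 13.9 FPKM in q1 (-5.86 ± 1.86). At +4 the adjusted p of expB6 for q2 against q1 is 0.359 in the authors' deposited table, so the difference is called here on a contrast that their test does not call. HRGP, a hydroxyproline-rich wall glycoprotein, had 0.289 FPKM at +4 and 16.0 FPKM at -1 in q2, and 3.75 FPKM at +4 and 1.55 FPKM at -1 in q1. Its difference of -7.07 ± 1.12 was the largest called among genes with a symbol, and it rests on low levels. HRGP passed the 5 FPKM minimum only through q2 at -1, a value that also enters this difference. The difference is therefore not independent of how the gene was chosen.

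Phenylpropanoid and lignin genes had a median of -3.34 in q2 and -1.72 in q1. Dividing the columns by their medians, so that the pseudocount weighs more, gave -1.11 in q2. Of 8 genes, 7 were at least 2-fold lower at +4 in q2 and 7 in q1. pal3, a phenylalanine ammonia-lyase at the entry of the pathway, had 13.1 FPKM at +4 and 240.4 FPKM at -1 in q2 (difference -1.84 ± 0.46). ccoaomt1, a caffeoyl-CoA methyltransferase, had 3.97 FPKM at +4 and 89.4 FPKM at -1 in q2 (-2.25 ± 0.56). cad1, of the cinnamyl alcohol dehydrogenase family, had 0.416 FPKM at +4 and 13.4 FPKM at -1 (-3.27 ± 1.03). lac5, a laccase, was listed at 0 at +4 and had 24.7 FPKM at -1. LAC1 was the exception, with 103 FPKM at +4 and 84.5 FPKM at -1 in q2.

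Of 8 anthocyanin and flavonoid genes in q2, 5 were at least 2-fold lower and 2 higher at +4, with medians of -1.41 in q2 and -0.77 in q1. The normal test called no difference, and 5 of 7 tested genes passed an unadjusted p of 0.05. fht1, flavanone 3-hydroxylase, had 1.85 FPKM at +4 and 67.4 FPKM at -1 in q2. The higher genes were a2, an anthocyanidin synthase gene, and pl1, a MYB activator of the pathway.

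**Figure D5:**
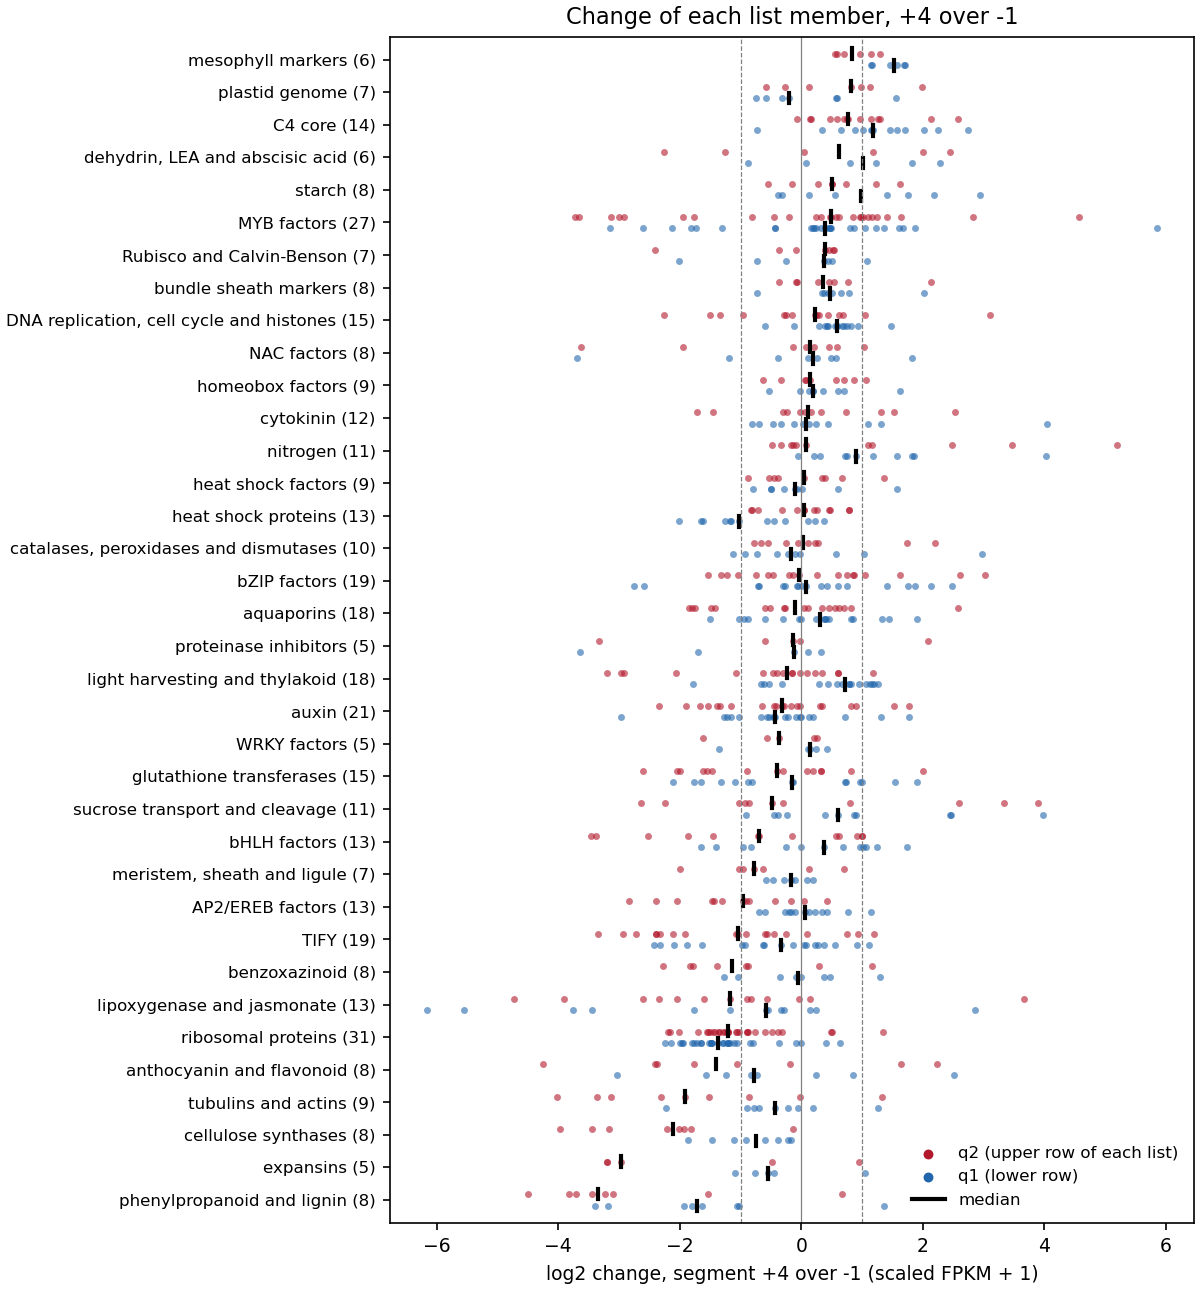
Log2 change from segment -1 to +4 (horizontal axis, scaled FPKM with 1 added) of each member gene of the lists with 5 or more measured genes, in q2 (upper row of each list) and q1 (lower row), with the list median as a black bar and dashed lines at 2-fold. Lists are ordered by the q2 median, from phenylpropanoid and lignin genes at -3.34 to mesophyll markers at 0.83.

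Defence-related lists had negative medians in q2. Lipoxygenases and their partners make jasmonates and related lipid signals. Of 13 such genes, 7 were at least 2-fold lower and 1 higher in q2, with medians of -1.18 in q2 and -0.58 in q1. aos2, an allene oxide synthase, had 1.05 FPKM at +4 and 37.0 FPKM at -1 in q2, against 7.56 and 149 FPKM in q1. lox5 had 0.119 FPKM at +4 and 6.77 FPKM at -1 in q2, against 2.09 and 182 FPKM in q1. The gene opr6 was higher at +4 in both groups, at 3.66 in q2 and 2.87 in q1.

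The TIFY family holds the JAZ repressors of jasmonate signalling. Of 19 TIFY genes, 10 were at least 2-fold lower and 1 higher in q2, with medians of -1.04 in q2 and -0.34 in q1 and 2 called differences, both lower in q2. ZIM10 had 9.97 FPKM at +4 and 92.5 FPKM at -1 in q2, against 32.4 and 66.4 FPKM in q1 (difference -2.18 ± 0.57). The second, named after its values were seen, was ZIM4 (-2.25 ± 0.62).

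Benzoxazinoids are the main defence metabolites of young maize. Of 8 pathway genes, 4 were at least 2-fold lower and 1 higher at +4 in q2, with medians of -1.15 in q2 and -0.05 in q1. BX4 had 30.6 FPKM at +4 and 147 FPKM at -1 in q2, against 442 FPKM at +4 and 587 FPKM at -1 in q1 (difference -1.85 ± 0.47). bx9, a glucosyltransferase, had 28.4 FPKM at +4 and 131 FPKM at -1 in q2, against 136 and 189.8 FPKM in q1 (-1.73 ± 0.45). Igl, an indole-3-glycerol phosphate lyase, had 1.13 FPKM at +4 and 5.72 FPKM at -1 in q2, against 36.6 FPKM at +4 and 19.0 FPKM at -1 in q1 (-3.29 ± 0.74). The levels of these 3 genes in q2 were below those in q1 already at -1. bx1, the entry enzyme of the pathway, had 28.4 FPKM at +4 and 16.1 FPKM at -1 in q2, against 237 and 240.5 FPKM in q1.

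A smaller set had a higher change in q2. sci1 (chromosome 8, 134463275 to 134464177), a proteinase inhibitor gene, had 146, 340, 1100 and 1739 FPKM in q2 at -4, -1, +4 and +10, and 52.7, 203, 46.8 and 152 FPKM in q1. Its level at +4 was above that at -1 in q2 and below it in q1, with a difference of 3.81 ± 0.52. The other 4 proteinase inhibitor genes had no called difference, and cpi2 had 17.5 FPKM at +4 and 241 FPKM at -1 in q2.

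Heat shock proteins are chaperones that hold and refold proteins. In q2 none of 13 genes passed 2-fold between the segments, while in q1 7 were at least 2-fold lower at +4 and none higher. hsp18, a small heat shock protein, had 708 FPKM at +4 and 674 FPKM at -1 in q2, against 31.1 and 169 FPKM in q1 (difference 2.51 ± 0.49). hsp82, of the HSP90 family, had 133 FPKM at +4 and 102 FPKM at -1 in q2, against 6.36 and 28.7 FPKM in q1 (2.56 ± 0.50). These were the 2 called differences of the list. The list median in q2, 0.04, changed sign under several scalings, so no direction is given for it. Of 9 heat shock factors 1, a record named Hsf05, was at least 2-fold higher in q2 after scaling, with 55.9 FPKM at +4 and 28.1 FPKM at -1 as deposited. The other record of that name lay within 2-fold.

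The other large higher differences covered varied functions. PSK3, a phytosulfokine peptide precursor gene, had 22.1 FPKM at +4 and 8.17 FPKM at -1 in q2, against 3.17 and 9.30 FPKM in q1 (2.99 ± 0.75). RNRS1, a ribonucleotide reductase subunit, had 20.5 FPKM at +4 and 2.12 FPKM at -1 in q2, against 3.99 and 2.46 FPKM in q1 (2.58 ± 0.65). RNRS1 passed the 5 FPKM minimum only through q2 at +4, a value that also enters its difference. AUX18, an Aux/IAA gene of auxin signalling, had 7.26 FPKM at +4 and 2.00 FPKM at -1 in q2, against 2.91 and 5.69 FPKM in q1 (2.83 ± 0.66). MURE and PTAC12, both parts of the plastid transcription complex, changed by 0.14 and 0.11 in q2 and were lower at +4 in q1 (-1.84 and -1.80), with differences of 2.23 ± 0.51 and 2.00 ± 0.47.

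Among the large lower differences outside the lists above, znod1 (chromosome 9, 18623337 to 18625477) had 56.7, 23.0, 4.16 and 0.314 FPKM in q2 at -4, -1, +4 and +10, and 17.1, 12.3, 81.5 and 21.9 FPKM in q1. Its difference was -5.21 ± 0.57. dxs2, a deoxyxylulose phosphate synthase of plastid isoprenoid synthesis, had 0.300 FPKM at +4 and 7.64 FPKM at -1 in q2, against 22.1 and 29.4 FPKM in q1 (-4.27 ± 1.03). For dxs2 too the authors' deposited table gives an adjusted p above the threshold at +4, 0.141. Of the 12 genes lowest at +4 in q2, 4 also differed from q1, namely rs2 (-4.65 ± 1.07), BURP4 (-3.75 ± 0.51), gl4a (-2.93 ± 0.46) and gar2 (-1.89 ± 0.49). Of the 12 genes highest at +4, NNR1 had a called higher difference and LOL3 a called lower one (-1.80 ± 0.48).

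Of 13 AP2/EREB factors, 6 were at least 2-fold lower at +4 in q2 and none higher, with medians of -0.97 in q2 and 0.07 in q1, and 4 differences were called, all lower. dbf1, a DRE-binding factor, had 15.8 FPKM at +4 and 114 FPKM at -1 in q2, against 31.0 and 38.9 FPKM in q1 (-2.53 ± 0.50). EREB92 (-1.65 ± 0.49) and EREB156 (-2.38 ± 0.73) were called as well, as was DBP4 (-3.06 ± 0.91), named after its value was seen. At -1, dbf1, EREB92 and EREB156 were above q1 in q2, and at +4 below it.

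Of 13 bHLH factors, 5 were at least 2-fold lower and none higher in q2, with medians of -0.70 in q2 and 0.37 in q1. bHLH116 had 2.38 FPKM at +4 and 43.5 FPKM at -1 in q2, against 20.0 and 47.3 FPKM in q1 (-2.95 ± 0.68). bHLH108 (-2.99 ± 0.95) and, named after its value was seen, bHLH165 (-3.04 ± 0.68) were also called. Of 27 MYB factors, 8 were higher and 7 lower in q2, among them myb8, with 0.579 FPKM at +4 and 24.2 FPKM at -1 (-3.18 ± 0.96). Of 19 bZIP factors, 4 were higher and 4 lower in q2, with no difference called by the normal test and 5 at an unadjusted p under 0.05, and bZIP61 had 204 FPKM at +4 and 32.1 FPKM at -1. For comparison, 13.2% of all member genes were higher and 18.7% lower in q2, and 4.18% of those tested had a called difference.

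Most genes of the smaller factor families stayed within 2-fold in q2, as did 9296 of all 13650 member genes. Of 8 NAC factors 1 was higher and 2 lower, of 5 WRKY factors none was higher and 1 lower, and of 9 homeobox factors 1 was higher and none lower, and the normal test found no difference in these families, called or at an unadjusted p under 0.05. Of 7 meristem, sheath and ligule genes none was higher and 2 were lower, YAB3 and YAB11. Of 4 measured gibberellin genes 3 were lower in q2 and none higher, among them the DELLA genes d9 (3.81 FPKM at +4 and 26.8 FPKM at -1) and D8 (8.99 FPKM at +4 and 28.6 FPKM at -1).

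Of 21 auxin genes 2 were higher and 7 lower in q2. Of 12 cytokinin genes 3 were higher and 2 lower, and CKX10, a cytokinin oxidase, changed by 1.53 in q2 and 4.04 in q1 (difference -2.89 ± 0.73). Of 2 measured clock genes, gigz1a, a GIGANTEA homologue, had 25.5 FPKM at +4 and 11.6 FPKM at -1 in q2, and conz1 had 1.81 FPKM at +4 and 6.44 FPKM at -1. Of 15 cell cycle, replication and histone genes 2 were higher and 3 lower in q2. The shares over all member genes were 13.2% higher and 18.7% lower.

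Stress and transport lists were mixed. Of 6 dehydrin and abscisic acid genes 3 were higher and 2 lower at +4 in q2. dhn1, a dehydrin, had 16.1 FPKM at +4 and 52.0 FPKM at -1 in q2, against 13.8 and 7.10 FPKM in q1 (-2.66 ± 0.58), and dhn2 had 96.6 FPKM at +4 and 613 FPKM at -1 in q2. VP15, of abscisic acid synthesis, had 22.3 FPKM at +4 and 6.44 FPKM at -1 in q2. Of 18 aquaporins 1 was higher and 5 lower in q2, with 1 called lower difference, and of 15 glutathione transferases 1 was higher and 6 lower, with 1 called higher difference. Over all member genes, 13.2% were at least 2-fold higher and 18.7% lower in q2. Called higher differences made up 0.719% and called lower ones 3.46% of tested member genes.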

How the data were processed

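RNA-seq of 4 leaf segments of W22 maize, wild type and dct2-1, comprised 24 libraries in 8 groups of 3, each from 15 pooled plants per the labels' protocols. The submitters' processing notes name GSNAP, a read aligner, and Cuffdiff, a test of differential expression. Their versions, the genome build, the annotation, the strand handling and the read depth are not given in the sources used for this work. The 4 deposited tables give, per the file headers, FPKM values for q1 and q2 pooled by the authors over the replicates, a test statistic, which is a score of no set range, and a p-value with its q-value. Precision beyond the deposited statistic is unknown.

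The q2 columns of the +4 and -1 tables were joined by gene, 3 genes with an overloaded or failed test at +4 (pep1, pdk1 and cncr1) were dropped, and genes of at least 5 FPKM in 1 segment were kept. Each column was multiplied so that its median over member genes (11.4 FPKM at +4 and 15.0 FPKM at -1 in q2) equalled the geometric mean of both, with a pseudocount of 1 FPKM. The same genes and steps were used for q1. The pseudocount understates changes of low genes. Genes at 0 (34 at +4, 7 at -1) have no fold.

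The standard error of a q2 over q1 fold change is its log2 size over the deposited statistic. The difference of changes is log2 fold change at +4 minus that at -1, without pseudocount, so it departs slightly from the difference of the 2 printed changes. It was tested with a two-sided normal test, Benjamini-Hochberg adjusted over 16995 genes, called under 0.05; its errors were taken as independent and its p-values are not printed. The deposited p-values do not follow from the statistic by a normal distribution: the z-value of a deposited p was at the median 1.73 times the statistic at +4 and 1.74 times at -1, so errors from the statistic are mostly the larger ones, while at +4 23 member genes and at -1 8 had an unadjusted p under 0.05 by the statistic only. On simulated data the test recovered 37 of 100 genes with a log2 difference of 2 and 92 of 100 with 4, with 5 false among 134 calls. The simulated noise was normal, with the standard errors that the test assumes. These counts therefore do not give the error rate of the real calls.

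Members and 42 gene lists were chosen with earlier results of these data known, so list counts are descriptions. From the lists, 46 pairs of list and gene were removed because the symbol names another gene, 1 of them after its level was seen. RefSeq names (assembly Zm-B73-REFERENCE-NAM-5.0) matched 18775 identifiers and gave 1486 members a symbol. Named genes were pDCT2 and C4 core genes, the 12 largest positive and 12 largest negative changes and 8 largest called differences per direction among genes with a symbol, up to 4 members past 2-fold per list and all members of short lists, the 5 most abundant genes per segment, and 2 genes on each side of the FPKM minimum. Of the members, 844 share a deposited locus with another gene. The values of 1 gene that the rule names are not reported here. Alternatives changed the scaling, pseudocount, minimum, fold, status filter, adjusted p and source of the error. Python 3.11.15, numpy 2.4.6, pandas 2.3.3, scipy 1.17.1 and matplotlib 3.10.9 were used.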

Additional observations from a re-analysis of the deposited data

Results flagged for a closer look

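The change from segment -1 to +4 differed between q2 and q1, by the test of the difference itself, in 95 member genes with a higher and 458 with a lower change in q2. Members were chosen by their q2 level alone, so this split does not compare directions on equal terms. HRGP and RNRS1, listed below, passed the FPKM minimum only through q2. Among the genes that the naming rule covers, 41 had a lower and 9 a higher called change; each value is the log2 difference, q2 minus q1.

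Wall, cytoskeleton and surface genes with a lower change in q2 had these log2 differences: HRGP -7.07, expB6 -5.86, expB4 -3.08, Actin-7 -3.85, tua4 -2.95, tub5 -2.72, tub6 -2.43, cesa8 -2.89, cesa2 -2.45, cesa3 -2.14, cesa6 -1.65, cesa7 -1.62, cesa5 -1.60, BURP4 -3.75 and gl4a -2.93. Lignin genes with a lower change in q2 had these log2 differences: cad1 -3.27, ccoaomt1 -2.25 and pal3 -1.84. Antenna genes with a lower change in q2 had these log2 differences: cab48 -3.99, cab-m1 -3.56 and lhcb3 -3.22. Carbohydrate genes with a lower change in q2 had these log2 differences: sus1 -3.35, ss1 -1.92 and GBSSIIa -1.73. Defence and jasmonate genes with a lower change in q2 had these log2 differences: Igl -3.29, BX4 -1.85, bx9 -1.73 and ZIM10 -2.18. Transcription factors with a lower change in q2 had these log2 differences: rs2 -4.65, myb8 -3.18, bHLH108 -2.99, bHLH116 -2.95, dbf1 -2.53, EREB156 -2.38 and EREB92 -1.65. Other genes with a lower change in q2 had these log2 differences: znod1 -5.21, dxs2 -4.27, CKX10 -2.89, dhn1 -2.66, gar2 -1.89 and LOL3 -1.80. 

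Genes with a higher change in q2 had log2 differences as follows: sci1 3.81, PSK3 2.99, AUX18 2.83, RNRS1 2.58, hsp82 2.56, hsp18 2.51, MURE 2.23, PTAC12 2.00 and NNR1 1.67. No explanation of them was tested.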

How the results depend on the processing

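The scaling and the FPKM minimum moved how the changes in q2 divide by direction. With 1802 genes at least 2-fold higher and 2552 lower as reported, no scaling gave 1122 higher, and columns divided by their medians, so that the pseudocount weighed more, gave 819 higher and 890 lower. With no FPKM minimum 3620 genes were higher and 2705 lower, so that higher genes were the majority. With a pseudocount of 5 FPKM 1672 were lower, and at 4-fold 549 were higher and 1118 lower. For the difference between q2 and q1, an adjusted p under 0.01 kept 44 genes with a higher and 266 with a lower change. Standard errors from the deposited p-values, an alternative chosen after seeing the data, gave 667 higher and 1443 lower differences, and 44 of the 553 reported calls were lost. Of these, 43 have a deposited p of 5e-05 in at least 1 segment, the smallest the tables give, which caps the statistic that can be derived from it. Among the 50 named calls, expB4, expB6, dxs2, BX4, Igl, hsp18 and hsp82 were lost. The remaining alternatives of the 4 counts kept each of them within 1.5 times the reported one. Over the alternatives, 380 values of list medians stayed close to the reported ones and 39 moved. Of 22 list medians of at least 0.5 in size, 13 were over 1.5 times smaller with columns divided by their medians. For named genes, 1970 values stayed and 150 moved, and no change past 2-fold turned its sign. No paired analysis was possible because the tables carry no value per library; for the same reason no replicate could be left out. Read depth is unknown, so a limit of detection cannot be given, and the smallest log2 difference called was 1.42.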
